A study of Caenorhabditis elegans with 2 samples.

Results

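Peaks of the tagged T-box factor MAB-9 that lay inside genes, away from promoters, were examined in young larvae of the nematode Caenorhabditis elegans. Of 1431 peaks in the authors' conservative list, 1164 were autosomal, and 225 of these were gene-body peaks. A gene-body peak had its summit inside a protein-coding gene and outside the promoter stretch. That stretch began 1000 bp before the closest protein-coding transcript start and ended 250 bp after it. By position alone, 167 of the 225 lay in introns and 58 in exons. The other autosomal peaks comprised 680 in that promoter stretch and 259 between genes. Chromatin was immunoprecipitated with an antibody to GFP from whole, unsexed L1 larvae of strain RW12257, aged 6 hours and kept without food after bleaching. The strain carries st12257[mab-9::TY1::EGFP::3xFLAG] on chromosome II, an insertion made with CRISPR at mab-9 itself, so the tagged protein is made from its own locus. There was 1 group of 2 biological replicates, and both carried the tag. No untagged or input library was analysed here. Read numbers were not used here, and the depth is unknown. Coordinates are of the ce11 build, and genes are those of Ensembl on the same assembly (WBcel235).

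MAB-9 belongs to the T-box family, whose members bind DNA through a conserved domain that recognises a short core written AGGTGTGA. In C. elegans it is known for specifying hindgut cells, patterning the male tail and guiding the axons of ventral cord motor neurons. Chromatin of whole larvae mixes these few cells with all the others, and the lists do not tell which cells gave a peak. Introns can hold enhancers, internal promoters and complete small RNA genes, whereas coding exons are bound by the need to encode protein.

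The stretches reaching 50 bp to either side of the summits of 6 of the 8 strongest intronic gene-body peaks are shown first, to show what the sequence at strong intronic peaks looks like. Those of T28F4.1 and ppfr-1, which rank among them by signal, are not printed. They are read from the RefSeq sequence of WBcel235 on the plus strand, 5′ to 3′. Capitals mark a match, on either strand, to 1 of 8 short patterns that were searched for. The patterns in capitals here are ACGCAG (read as CTGCGT on the other strand), GTTCGA and GAGAGAGA.
Y111B2A.12 intron, chrIII:12612617-12612717: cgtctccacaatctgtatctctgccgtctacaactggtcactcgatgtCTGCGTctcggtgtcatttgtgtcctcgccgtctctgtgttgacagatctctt
Y56A3A.7 intron, chrIII:11946504-11946604: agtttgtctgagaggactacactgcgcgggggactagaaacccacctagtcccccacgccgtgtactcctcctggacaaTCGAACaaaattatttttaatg
dhc-4 intron, chrIII:10989582-10989682: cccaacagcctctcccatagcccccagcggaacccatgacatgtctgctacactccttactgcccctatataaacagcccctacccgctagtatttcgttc
epg-9 intron, chrIV:2602104-2602204: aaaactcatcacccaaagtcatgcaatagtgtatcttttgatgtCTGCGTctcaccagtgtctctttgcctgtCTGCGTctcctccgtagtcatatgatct
Y65A5A.2 intron, chrIV:16415232-16415332: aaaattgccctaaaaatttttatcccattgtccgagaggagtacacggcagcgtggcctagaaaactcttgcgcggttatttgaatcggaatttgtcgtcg
W06H8.6 intron, chrV:6224652-6224752: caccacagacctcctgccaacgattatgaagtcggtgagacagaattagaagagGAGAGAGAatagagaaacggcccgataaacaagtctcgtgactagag

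For contrast, the 3 coding-exon peaks with the highest signal outside UTRs are shown in the same way. The only capitals here mark TTTTCAG, the letters of a typical worm 3′ splice site, read on the other strand as CTGAAAA.
lelo-2 coding exon, chrIII:1419985-1420085: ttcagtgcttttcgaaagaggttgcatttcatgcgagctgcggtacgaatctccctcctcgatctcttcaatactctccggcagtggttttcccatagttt
tlp-1 coding exon, chrIV:13702821-13702921: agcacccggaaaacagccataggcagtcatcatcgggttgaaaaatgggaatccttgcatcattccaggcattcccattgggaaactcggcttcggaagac
xbp-1 coding exon, chrIII:4194292-4194392: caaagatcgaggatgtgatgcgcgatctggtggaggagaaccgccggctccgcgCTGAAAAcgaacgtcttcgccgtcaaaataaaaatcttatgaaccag

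A pair of intronic peaks beside small RNA genes is shown over 151 bp centred on the summit, chosen after their values were seen as the strongest at a tRNA and at a snoRNA gene. Capitals mark the annotated bases of the RNA gene, which lies on the plus strand in both. The first gene, W09D6.t1 (WBGene00014552), encodes tRNA-Pro, and the second, ZK994.7 (WBGene00044958), is a snoRNA gene.
rsa-2 intron, chrIII:11066912-11067062: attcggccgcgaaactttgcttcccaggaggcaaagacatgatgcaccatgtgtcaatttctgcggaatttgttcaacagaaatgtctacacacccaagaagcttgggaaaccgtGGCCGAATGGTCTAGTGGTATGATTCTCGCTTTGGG
pxn-1 intron, chrV:8500457-8500607: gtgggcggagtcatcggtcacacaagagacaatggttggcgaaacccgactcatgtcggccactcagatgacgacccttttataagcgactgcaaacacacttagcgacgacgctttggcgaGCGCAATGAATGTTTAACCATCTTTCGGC

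Introns held more peaks than exons, both in number and per length of sequence. The 167 intronic peaks came to 7.27 per Mb of intron open to the rule, and the 58 exonic peaks to 3.13 per Mb of exon. Promoters held 31.6 peaks per Mb and intergenic sequence 13.3 per Mb, so both kinds of gene-body sequence were below both. Introns took 74.2% of the gene-body peaks (exact binomial 95% interval 68 to 79.8), while they made up 55.3% of the gene-body sequence, counted in windows laid end to end (100 bp to either side of a centre) over the autosomes. All such intervals treat peaks as independent and cover counting error only.

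Signal, the value that the authors' peak caller wrote for each peak, was lower in gene bodies than in promoters by the median. The median pooled signal was 90.8 in introns, with a middle range from 75.1 to 119.7 between quartiles. In exons the median was 77, with quartiles of 70.1 and 86.1. Promoter peaks had a median of 113.6 and intergenic peaks one of 88.8. At least the median signal of all listed peaks, 98.7, was reached by 42.5% of intronic but 17.2% of exonic peaks. The lowest 13 gene-body signals, all below 45, belonged to peaks that overlapped another listed peak. The next signal above them was 47.8.

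**Figure D1:**
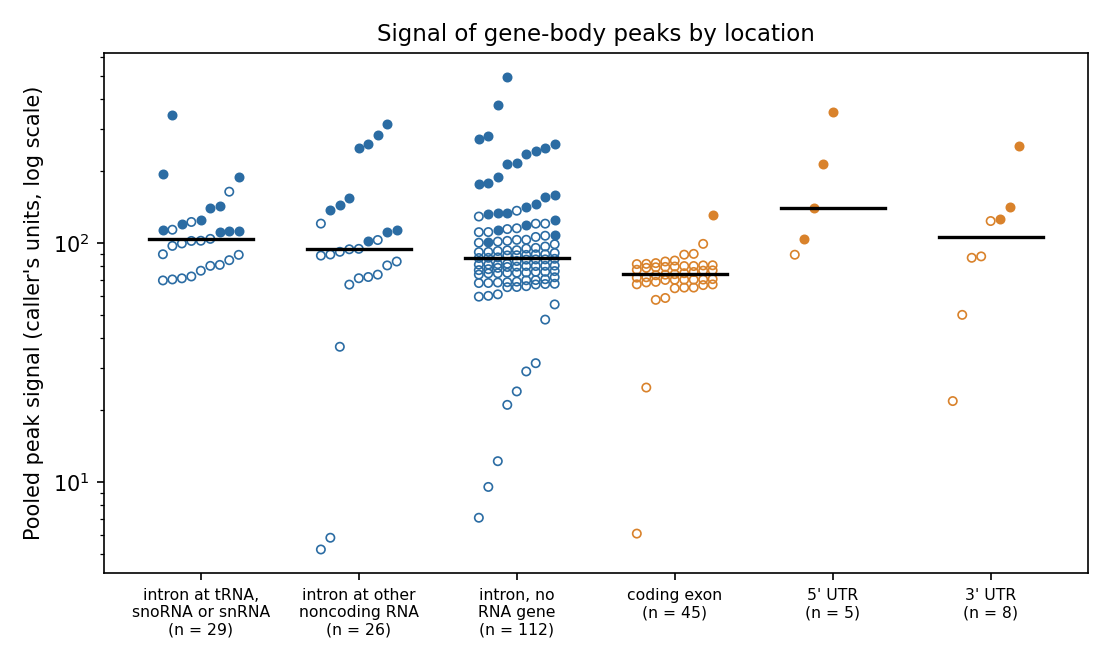
Pooled signal of each of the 225 gene-body peaks (vertical axis, caller's units, log scale) by where the summit lay, with black lines at the medians; filled points are peaks found in both replicates' own lists. Coding-exon peaks run from 6.1 to 130.4, while peaks in introns without an RNA gene reach 495.5.

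The strongest gene-body peak lay in intron 4 of Y111B2A.12 (WBGene00013735), with its summit at chrIII:12612667. Its signal was 495.5 in the pooled data, 261.0 in replicate 1 and 228.4 in replicate 2. The summit was 3378 bp from the start of a gene of 14452 bp, in an intron of 7076 bp and 1922 bp from the nearer splice site. It ranked 16 among all 1431 peaks, so 15 peaks elsewhere in the genome were stronger. Its printed stretch holds the ACGCAG pattern close to the summit.

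Y56A3A.7 (WBGene00013228) held the next strongest intronic peak, in intron 3, an intron of 247 bp. Its signal was 376.7 pooled, 213.6 in replicate 1 and 153.3 in replicate 2. This summit was 465 bp from the host's start, past the promoter limit of 250 bp downstream, and 64.2% of its window of 100 bp to either side was soft-masked as repeat in the reference. dhc-4 (WBGene00012272), which encodes a dynein heavy chain, followed with 343.4 pooled, 205.1 in replicate 1 and 134.5 in replicate 2. That summit lay in intron 31, far into a gene of 21973 bp, and 47 bp upstream of the snRNA gene W05B2.8.

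The other intronic peaks among the 12 strongest were also found in both replicates' own lists. They lay in T28F4.1, ppfr-1, epg-9, Y65A5A.2, W06H8.6, gei-4, ints-8, mod-5 and max-2. Among these hosts, ppfr-1 encodes a regulatory subunit of protein phosphatase PP4, epg-9 an autophagy protein, ints-8 an Integrator complex subunit and mod-5 the serotonin reuptake transporter. max-2 encodes a p21-activated kinase with a known role in motor axon guidance. At epg-9 the signal was 280.4 pooled, 132.1 in replicate 1 and 157.0 in replicate 2, the replicate order opposite to that at dhc-4. At max-2, in intron 10, it was 242.0 pooled, 131.8 in replicate 1 and 117.8 in replicate 2. The 51 bp at the mod-5 summit occurred 5 times in the genome, and its share in this signal was not tested. Of the 225 peaks, 17 had central 51 bp that occurred more than 1 time, and all the other strongest intronic summits were unique by this measure.

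Exonic peaks split by the part of the exon. Of the 58, 45 lay in coding sequence, 5 in 5′ UTRs and 8 in 3′ UTRs. The median signal was 74.1 in coding exons, 140.5 in 5′ UTRs and 105.7 in 3′ UTRs. Coding exons made up 77.6% of exonic peaks and 88.1% of the exonic sequence, and 5′ UTRs 8.62% and 1.40%. A 5′ UTR exon often lies near an alternative or distant start, which the limit of 250 bp does not reach. The 5 summits in 5′ UTRs lay 281 to 2076 bp downstream of the nearest start. The part of such starts in these shares was not tested. Of the coding-exon peaks 1 was in both replicates' own lists and 39 were in neither, against 4 in both and 0 in neither for the 5′ UTR peaks.

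C34C12.2 (WBGene00007921) carried the strongest exonic peak, in its 5′ UTR with the summit at chrIII:3456421. The signal was 352.7 pooled, 191.2 in replicate 1 and 163.2 in replicate 2. C05D11.8 had a 3′ UTR peak of 254.4 pooled, 135.3 in replicate 1 and 118.1 in replicate 2, and agt-2, an alkyltransferase of DNA repair, a 5′ UTR peak of 213.2 pooled. These 3 exceeded every coding-exon peak.

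The next exonic peaks included hosts with known signalling roles. egl-30, which encodes the Gq alpha subunit, had a 5′ UTR peak of 140.5 pooled, 59.2 in replicate 1 and 66.5 in replicate 2. eat-16, a regulator of G protein signalling that opposes it, had a 3′ UTR peak of 126.1 pooled, 86.6 in replicate 1 and 44.2 in replicate 2. unc-62, the Meis-type homeodomain cofactor, had a 5′ UTR peak of 104.2 pooled, 53.4 in replicate 1 and 55.1 in replicate 2. All of these were in both replicates' lists, as was the 3′ UTR peak of T23G4.127. That of ekl-1, at 123.5 pooled, was in the list of replicate 1 only, and its central 51 bp occurred 4 times in the genome.

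The strongest coding-exon peak, in lelo-2 (WBGene00022348), had a signal of 130.4 pooled, 81.5 in replicate 1 and 47.5 in replicate 2. It was the coding-exon peak found in both replicates' lists. tlp-1 (WBGene00006580), a zinc-finger gene known for shaping the male tail tip, followed with 99.1 pooled, 52.97 in replicate 1 and 49.2 in replicate 2, and was in the list of replicate 1. xbp-1, a transcription factor of the unfolded protein response, had 90.0 pooled, 43.3 in replicate 1 and 42.3 in replicate 2, and was in neither. The remaining coding-exon signals were all lower.

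Noncoding RNA genes lay near many intronic peaks and almost no exonic ones. An annotated noncoding RNA gene was within 200 bp of the summit of 55 of 167 intronic peaks, or 32.9% (exact binomial 95% interval 25.9 to 40.6). The same was true of 1 of 58 exonic peaks, or 1.72% (0.0436 to 9.24), at the 3′ UTR of hsp-12.3. The difference of 31.2 percentage points passed a two-sided Fisher's exact test (p = 1.13e-07, adjusted p = 1.08e-06 by Benjamini-Hochberg over 19 tests). Peaks are not replicates, so this p covers counting error only. The same count over windows was 7.10% of intronic and 3.30% of exonic sequence. Nearness to such genes was not confined to introns. It held for 63 of 259 intergenic peaks (24.3%) and 108 of 680 promoter peaks (15.9%), against 56 of 225 gene-body peaks (24.9%). Among peaks at or above the median signal the difference was 42.3 points, with an adjusted p of 0.0708, and in the list of replicate 2 alone it was 25.6 points with an adjusted p of 0.180.

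Of these 55 intronic peaks, 29 were at a tRNA, snoRNA or snRNA gene, classes that work in translation, RNA modification and splicing. A tRNA gene lay near 14 intronic peaks (8.38%), against 0.214% of intronic windows. A snoRNA gene lay near 12 (7.19%), against 0.217% of windows, and an snRNA gene near 3 (1.80%), against 0.0919%. With rRNA genes counted too, these classes were near 17.4% of intronic, 8.49% of intergenic and 3.68% of promoter peaks. By contrast, piRNA genes, which are frequent in introns at 3.70% of windows, were near 1 intronic peak. The remaining intronic peaks with an RNA gene had one annotated as other ncRNA or antisense RNA.

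**Figure D2:**
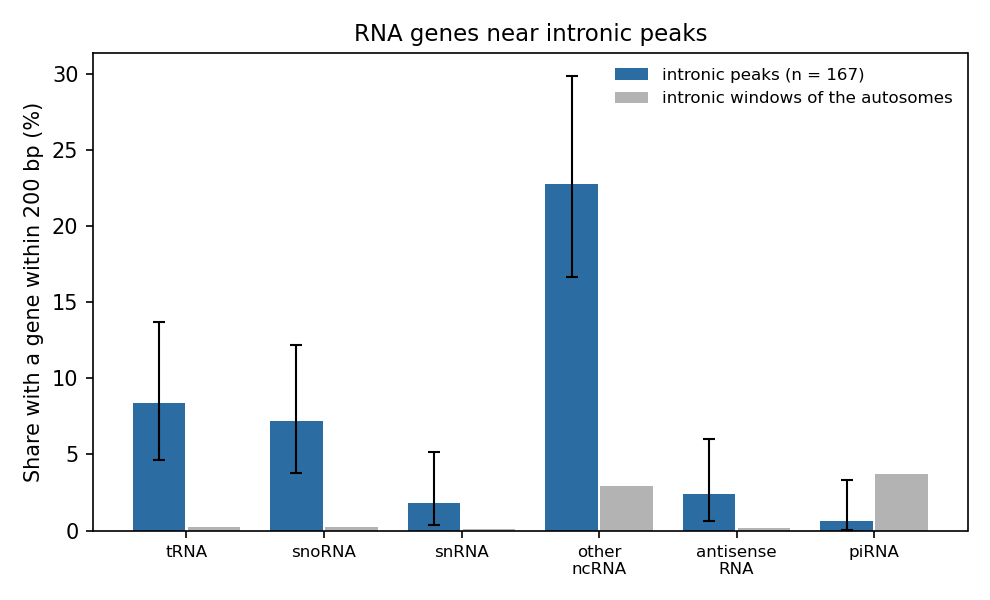
Share of intronic peaks (blue, n = 167, bars with exact binomial 95% intervals) and of intronic windows of the autosomes (grey) with a gene of each RNA class within 200 bp of the centre; a peak can count in more than 1 class. tRNA genes were near 8.38% of peaks and 0.214% of windows.

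The summits sat at the front of these small RNA genes. Of the 29 intronic peaks at a tRNA, snoRNA or snRNA gene, 20 had the summit upstream of the RNA gene's annotated 5′ end, 9 inside the gene and 0 downstream of it. Counted from that end, positions ran from -97 to 51 bp, with a median of -32 bp. At tRNA genes the median was -1 bp, and at snoRNA genes -32.5 bp. The host intron was short, with a median of 392 bp, against 2455 bp over all intronic peaks. Of these RNA genes 23 of 29 lay on the host's strand, including 11 of 12 snoRNA and 9 of 14 tRNA genes. The share over all intronic genes of these classes is not given here, so these strand counts are a description only. The tRNA genes were of 11 isotypes, none of them more than 2 times. The GTTCGA pattern, the core of the internal B box of tRNA genes, was in the window of 6 of the 14 tRNA peaks and of 5 of the 12 snoRNA peaks.

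**Figure D3:**
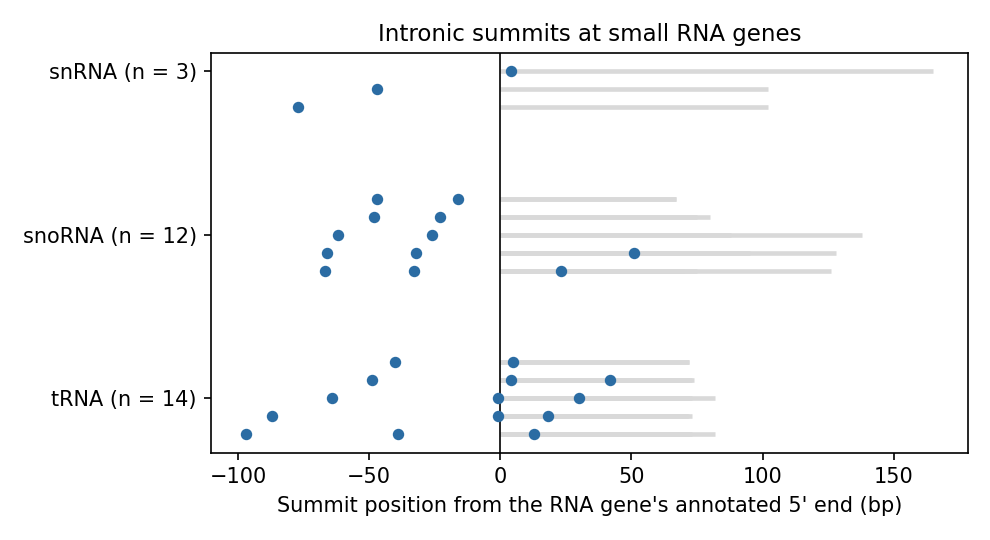
Position of each intronic summit (points) relative to the annotated 5′ end of the nearest tRNA, snoRNA or snRNA gene (vertical line at 0; horizontal axis in bp; grey bars are the extents of the RNA genes). None of the 29 summits lies beyond the 3′ end of its RNA gene, and 20 lie upstream.

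Among peaks at small RNA genes, that of dhc-4 was the strongest. In rsa-2, which encodes a centrosomal protein, the signal 40 bp upstream of the tRNA-Pro gene printed above was 188.4 pooled, 106.1 in replicate 1 and 88.3 in replicate 2. In pxn-1, a peroxidasin gene, the signal 47 bp upstream of the snoRNA gene was 195.0 pooled, 123.7 in replicate 1 and 71.5 in replicate 2. All 3 were in both replicates' lists. In the ints-8 intron the summit lay 29 bp upstream of rpr-1, the gene of the RNase P RNA, on the opposite strand to the host. Its signal was 248.4 pooled, 111.3 in replicate 1 and 120.8 in replicate 2. The strongest ppfr-1 peak lay inside an ncRNA gene, F16A11.7, while those of T28F4.1 and W06H8.6 lay past the 3′ end of one. The median signal was 104.01 at tRNA, snoRNA and snRNA genes, 94.3 at other noncoding RNA genes and 86.8 in introns with none.

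Replicate signals of most gene-body peaks were close. Both replicates' ranked lists held a match for 209 of the 225 peaks, and 202 of these (96.7%) differed by at most 2-fold. Over all autosomal peaks the share was 96.9%, so this closeness was not particular to gene bodies. The conservative list is thresholded by the irreproducible discovery rate, a measure of agreement between replicates, so close signals were favoured in advance. The log2 ratio of replicate 1 to replicate 2 had a median of 0.23 and an SD of 0.44, with replicate 1 higher for 146. Over these 209 peaks, which share the same 2 libraries, Pearson's r of log2 signal was 0.75 and Spearman's rho 0.48. For promoter peaks the values were 0.83 and 0.75.

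**Figure D4:**
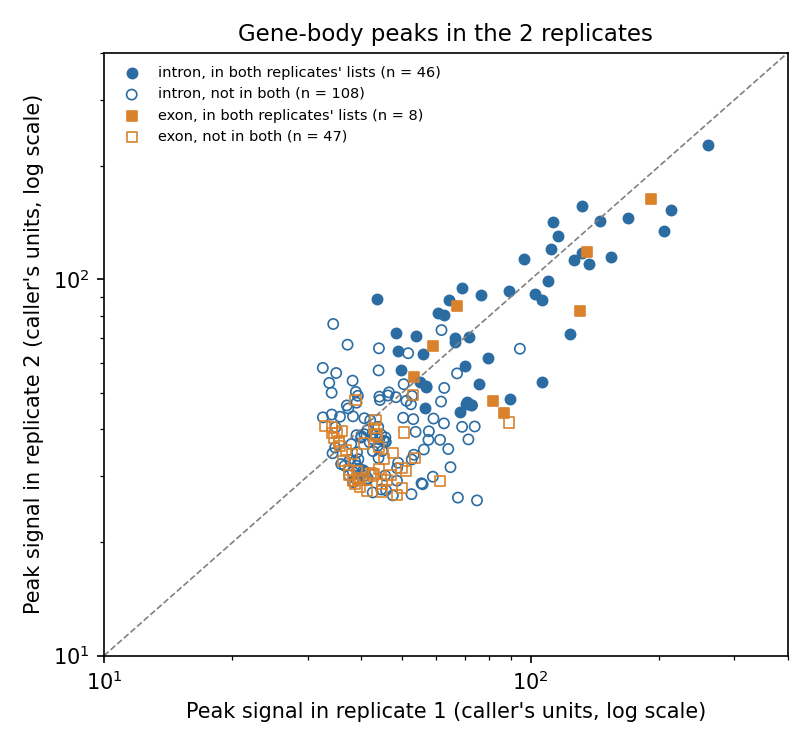
Signal of gene-body peaks in replicate 1 against replicate 2 (both axes in caller's units, log scale; circles are introns, squares exons; filled symbols are in both replicates' own thresholded lists; dashed line marks equality), for the 209 peaks matched in both ranked lists. Strong peaks follow the line, and most exonic peaks lie in the crowded low corner.

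Fewer gene-body than promoter peaks passed the authors' threshold in both replicates taken alone. Over all autosomal peaks the background was 39.7% in both replicates' lists. Of gene-body peaks, 54 of 225 (24.0%, exact binomial 95% interval 18.6 to 30.1) were in both, against 339 of 680 promoter peaks (49.9%, 46 to 53.7). This difference of -25.9 percentage points passed a two-sided Fisher's exact test (adjusted p = 1.02e-10), and 49.3% of gene-body peaks were in neither list. Intergenic peaks were close to gene-body peaks, with 69 of 259 (26.6%, 21.4 to 32.5) in both lists and 44% in neither, a difference that was not tested. Signal moved with these shares, with medians of 85.4 in gene bodies, 88.8 between genes and 113.6 in promoters. Among peaks at or above the median signal the shares were 66.7% and 80.8%, with an adjusted p of 0.0700.

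Within gene bodies, 46 of 167 intronic peaks (27.5%, 20.9 to 34.98) and 8 of 58 exonic peaks (13.8%, 6.15 to 25.4) were in both replicates' lists. The difference of 13.8 points did not pass after adjustment (two-sided Fisher's exact test, p = 0.0485, adjusted p = 0.184). It turned to -15.2 points among peaks at or above the median signal, where only 10 exonic peaks were left. With the narrower promoter limits of 500 bp upstream and 100 bp downstream it was 17.7 points, with an adjusted p of 0.0137.

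The T-box core AGGTGTGA was in the window, 100 bp to either side of the summit, of 0 of the 225 gene-body peaks (upper exact binomial bound 1.63%). It was in 0.358% of gene-body windows and in 2 of 680 promoter peaks. The shorter AGGTGT, which AGGTGTGA contains, was in 8 gene-body peaks (3.56%), against 5.4% of windows. The absence of these letters says nothing of whether the factor was there. All patterns were searched on both strands.

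Of the other patterns, some were more and some less frequent at gene-body summits than in gene-body windows. The patterns were chosen with earlier results of these data known, so these comparisons with windows are only described. ACGCAG was in 47 of 225 (20.9%), against 3.58% of windows, and GAGAGAGA, the repeat bound by GAGA-type factors in flies, in 27 (12%), against 1.02%. GTTCGA was in 28 (12.4%), against 7.98%, and CACGTG, the E-box of helix-loop-helix factors, in 13 (5.78%, exact binomial 95% interval 3.11 to 9.68), against 3.73%. Of the 28 peaks with GTTCGA, 12 were among the 29 intronic peaks at a tRNA, snoRNA or snRNA gene. Its share without those peaks was not tested against windows. TGATAA, the core bound by GATA factors, was in 12 (5.33%), against 17.1% of windows, and TTTTCAG in 20 (8.89%), against 22.8%. The GC content of the peaks' windows was higher, with a median of 47.3% at intronic peaks and 33.3% in intronic windows, and the part of base composition in these shares was not tested.

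No pattern's difference between introns and exons passed after adjustment. ACGCAG was in 41 intronic (24.6%) and 6 exonic peaks (10.3%), a difference of 14.2 points with p = 0.0241 and an adjusted p of 0.153 by two-sided Fisher's exact test. GAGAGAGA was in 23 intronic (13.8%) and 4 exonic peaks (6.90%), with an adjusted p of 0.456. Its difference of 6.88 points turned to -3.10 among peaks at or above the median signal and to -1.32 in the list of replicate 1 alone. In gene-body and promoter peaks ACGCAG was at 20.9% and 21.2%, a difference of -0.288 points and an odds ratio of 0.983 (95% interval 0.679 to 1.42). Of the 19 Fisher's exact tests, 2 passed an adjusted p of 0.05.

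In Y111B2A.12 and in both copies at epg-9, the letters around ACGCAG extended to AGACGCAG. This longer string, chosen after the sequences were seen and therefore only described, was in 26 intronic peaks (15.6%) and 3 exonic peaks (5.17%). It was in 1.23% of intronic and 0.452% of exonic windows. Promoter peaks held it in 83 of 680 (12.2%) and intergenic peaks in 48 of 259 (18.5%), so it was not particular to gene bodies. All 3 exonic peaks with it lay in UTRs and were in both replicates' lists, but only 7 of the 26 intronic ones were in both. No coding-exon peak held it. Over all peaks, with or without the string, 8 of 58 exonic and 46 of 167 intronic peaks were in both.

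Intronic peaks lay more often in long introns than intronic sequence does, and the interval of their share in first introns included that of the sequence. Of 165 intronic peaks that could be given an intron number, 42 (25.5%, exact binomial 95% interval 19 to 32.8) lay in the first intron, which made up 20.2% of intronic windows. Introns of at least 1000 bp held 108 (65.5%, 57.7 to 72.7), against 49% of windows. The median distance to the nearer splice site was 525 bp. Repeat-masked sequence was scarce, since 12.6% of intronic peaks but 47.2% of intronic windows had over 50% of their bases masked. Mapping of reads to repeats is limited, and its part in this was not tested.

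The nearest protein-coding start belonged to the host for 190 of the 225 (84.4%), against 79% of windows. The summit lay more than 1000 bp downstream of the nearest start for 100 peaks (44.4%, against 51.7% of windows). For 45 (20%, against 17.4% of windows) it lay upstream of the nearest start, beyond the limit of 1000 bp. Of these, 26 were upstream of another start of the host itself, as in T28F4.1 and gei-4, and 19 of another gene. A further 29 (12.9%, against 11.6% of windows) lay between the promoter limit of 250 bp and 500 bp downstream of the nearest start. Their median signal was 79.6, against 86.6 for those more than 1000 bp downstream. By chromosome, III held 29.8% of the peaks and 18.7% of gene-body windows, and V 15.6% and 23.1%.

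The 225 peaks fell in 195 host genes, 1.13% of the 17242 autosomal protein-coding genes. Hosts were long, with a median of 6536 bp against 1964 bp over all those genes. A host share of 0.239% among genes of up to 2000 bp grew to 3.58% between 5000 and 10000 bp and to 8.77% above 20000 bp. A longer gene has more sequence open to the rule, and these shares were not set per length, so they are a description only. Of the 195 hosts, 29 also had a listed promoter peak. The share over all autosomal protein-coding genes was not computed, so this count is a description only. mab-9 itself was not among the hosts.

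More than 1 gene-body peak was found in 23 hosts, which held 53 peaks, and in 15 of these hosts at least a pair of peaks did not overlap. In 4 hosts there were 3 or more. pqn-41 (WBGene00004128), a glutamine- and asparagine-rich protein known for its part in the death of the linker cell, had 4 peaks in a single intron of 10372 bp. Their pooled signals were 214.8, 176.3, 214.2 and 103.04 in order along the gene. The first 3 were in both replicates' lists and the last in neither.

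zfp-1, the AF10-type zinc-finger gene, had 3 intronic peaks of 159.0, 120.5 and 145.0 pooled in order along the gene, spread over 2 introns. ppfr-1 had 4, of which the strongest had 282.1 pooled, 145.3 in replicate 1 and 143.4 in replicate 2, and the others 113.3, 81.6 and 36.8. let-526, a subunit of a SWI/SNF chromatin remodelling complex, had 4 in 2 places, with 101.7 and 101.1 as the higher signal in each and 5.24 and 47.8 as the lower. At ppfr-1 and let-526 the 2 weakest peaks each overlapped a stronger one, so these counts include some places more than 1 time.

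**Figure D5:**
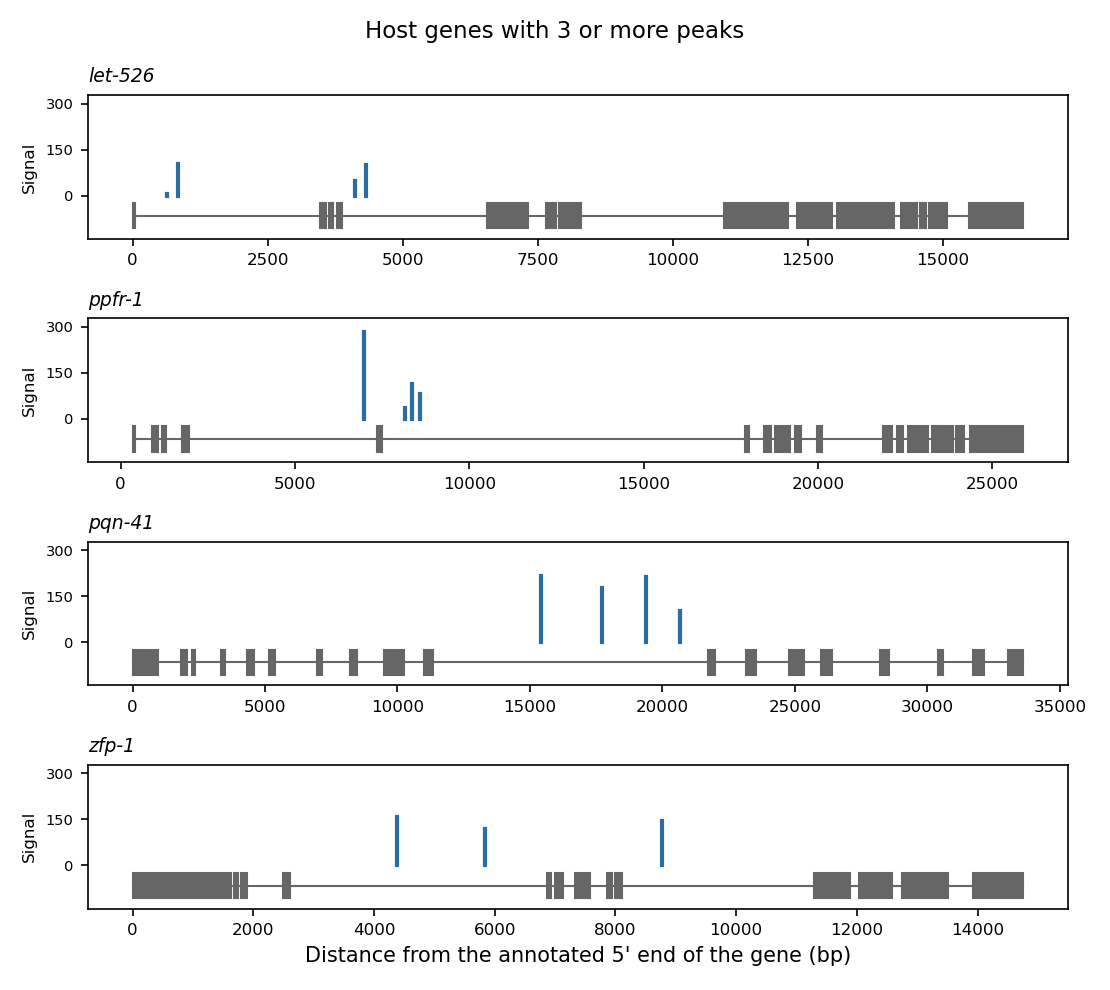
The 4 hosts with 3 or more gene-body peaks, drawn from the annotated 5′ end (bp) with exons of the longest transcript as boxes and each summit as a bar whose height is the pooled signal (caller's units). All peaks are intronic, and the 4 of pqn-41 lie apart within 1 intron.

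Hosts with a pair of peaks comprised both separate sites and shoulders of 1 site. mnk-1, a MAP-kinase-interacting kinase, had separate intronic peaks of 124.2 and 120.4, and crh-1, the CREB transcription factor, of 77.7 and 68.03. aakg-1, an AMP-activated kinase subunit, had 96.6 and 90.8, fkh-7, a forkhead factor, 88.6 and 80.4, ntl-3, a CCR4-NOT subunit, 89.2 and 68.3, and ccch-1 85.3 and 74.6. set-18 had 122.4 and 65.4, rsp-8, an SR splicing factor, 81.6 in an exon and 67.1 in an intron, and lelo-2 130.4 in an exon and 104.01 at a tRNA gene in an intron. Y111B2A.12 and W06H8.6 had weaker second peaks of 73.3 and 75.1. In ckk-1, srw-100, ida-1, xbp-1, cmk-1, unc-41, K01F9.2 and M01H9.3 the second peak overlapped the first.

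The lists are partial, built from chosen symbols and family names, so counts and the strongest member refer to the listed genes only. For example, mod-5, crh-1, xbp-1 and ckk-1 are hosts outside the transporter, transcription factor and kinase lists, and max-2 was listed under axon guidance and not among the kinases. Host genes were counted over 16 such lists, beside the 1.13% of all autosomal protein-coding genes. Of 29 axon guidance and outgrowth genes, 4 were hosts (13.8%), namely max-2, unc-76, dlk-1 and unc-33, all with intronic peaks. Their list had a median gene length of 10696 bp, and length moved with the host share over all genes, as given above; its part in this share was not tested. unc-76 had 98.8 pooled, 50.3 in replicate 1 and 42.9 in replicate 2. Of 20 hindgut and male tail regulators, 2 were hosts (10%): egl-27, with an intronic peak of 101.3, and tlp-1. Each of these 2 peaks was in the list of replicate 1 only. The genes of this list had a median length of 5058 bp, and the part of length was not tested. Of 40 neuronal and synaptic genes, 3 were hosts (7.5%), egl-30, ida-1 and egl-8.

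Signalling lists gave similar small counts. Ras, Notch, TGF-beta and insulin signalling had 3 hosts of 30 (10%), led by let-363, the TOR kinase, at 106.0 pooled and mpk-1, the ERK kinase, at 79.3. Wnt and cell polarity had 2 of 32 (6.25%), par-1 at 100.2 in an intron and pop-1, the TCF factor, at 70.7 in an exon. Of the 3 peaks in these Ras-group hosts and the 2 in these Wnt hosts, 0 were in both replicates' lists, against 24.0% of all gene-body peaks. So few peaks cannot be told apart from that share. Kinases, phosphatases and GTPases had 3 of 94 (3.19%), with mnk-1 the strongest of those listed.

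Among regulators of gene expression, 10 of 422 listed transcription factor genes were hosts (2.37%), with a median gene length of 2403 bp. mef-2, the MADS-box factor, had 189.5 pooled, 102.5 in replicate 1 and 91.5 in replicate 2, and nhr-19, a nuclear receptor, 131.6 pooled, 53.7 in replicate 1 and 70.8 in replicate 2. Chromatin and nucleosome remodelling genes had 2 hosts of 94 (2.13%), set-18 and let-526. Pre-mRNA splicing and RNA-binding genes had 3 of 113 (2.65%), with rsp-8 and smg-8 at 81.6 and 80.1 in exons. Translation factor and tRNA synthetase genes had 1 of 69 (1.45%), eif-2Bdelta at 93.3.

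Lists of channels, receptors and structural proteins differed in their host shares, on either side of the 1.13% of all autosomal protein-coding genes. Ion channel and transporter genes had 5 hosts of 239 (2.09%), of which twk-43, a potassium channel gene, was the strongest listed at 154.9 pooled, 71.6 in replicate 1 and 70.3 in replicate 2, and abts-1 at 102.9. Chemoreceptor genes had 1 of 1252 (0.0799%), srw-100, and collagen genes 1 of 146 (0.685%), col-72 at 110.9. The 41 muscle and cytoskeleton genes, the 79 cytosolic ribosomal protein genes and the 7 heterochronic genes had 0 hosts. Lists this small cannot be told apart from that share of 1.13%. The lists differ in gene length, from a median of 754 bp for ribosomal protein genes upward, so these shares are a description only.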

How the data were processed

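The lists used here hold peaks of MAB-9 chromatin, precipitated through its GFP tag, in 2 biological replicates, on the ce11 build per the labels. The aligner and peak caller are not given in the sources used here. Signal, as deposited by the authors, is their peak caller's value on an unstated scale, and the deposited score follows the irreproducible discovery rate; it was not tested. The conservative list pools both replicates, and each replicate has a thresholded list (824 and 869 peaks) and a ranked list. Depth per sample is unknown.

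Summits were placed on Ensembl genes. An exon of any protein-coding transcript counted before an intron. The host was the gene with an exon at the summit, then the longest. Replicate peaks were shared at an overlap of 50% of the shorter peak. Windows of 100 bp to either side of a centre, laid end to end over the autosomes (410713 in all) gave the background for 8 patterns, RNA genes and locations. RNA gene names are those of RefSeq, matched by WormBase identifier. Two-sided Fisher's exact tests (SciPy 1.17.1, Python 3.11.15) were adjusted over 19 tests. Code was tested on simulated data.

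Named genes are hosts of the 12 strongest intronic and 10 strongest exonic peaks, hosts with 2 or more peaks, the 2 strongest peaks of each of 16 gene lists (family names in a list matched whole), and the 5 strongest at noncoding RNA genes; others named were chosen after their values were seen. 54 listed symbols had no autosomal protein-coding gene. Members, lists and patterns were chosen with earlier results of these data known. Alternatives were another pooled list, a signal threshold, each replicate alone, other promoter limits, exon rules, overlaps, distances and windows.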

Additional observations from a re-analysis of the deposited data

How the results depend on the processing

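Of 76 recomputed values, 60 kept their direction and their side of the threshold or stayed close. With only peaks at or above the median signal, 81 gene-body peaks were left, 87.7% of them in introns, with a median signal of 128.96, which the cut itself raises. The difference between introns and exons near noncoding RNA genes was then 42.3 percentage points and no longer passed, that in GAGAGAGA was -3.10, that in both replicates' lists -15.2, and that between gene bodies and promoters -14.1, no longer past the threshold; only 10 exonic peaks remain at this setting. Leaving out 1 replicate, which uses the list of the other alone, gave 113 to 115 gene-body peaks, 82.6% to 83.2% of them intronic, and medians of 53.6 to 61.5. It gave differences of 25.6 to 33.7 points near RNA genes, the lower one, without replicate 1, not passing, and of -1.32 (without replicate 2) to 6.49 points for GAGAGAGA. Signals of a single replicate run lower than pooled ones, with medians of 46.1 in replicate 1 and 40.3 in replicate 2 over matched gene-body peaks. The medians of 53.6 to 61.5 are therefore not comparable with the pooled median of 85.4. Promoter limits of 500 and 100 bp gave 17.7 points between introns and exons in both replicates' lists, past the threshold. The causes were not tested. Leaving out peaks whose central 51 bp recur in the genome, chosen after seeing the data, changed no call among the 7 results it was run for; the comparison of gene bodies with promoters was not among them. No paired analysis was possible because there was 1 group. Unknown depth means that a peak absent from a replicate's list cannot be called unbound there.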
